A study of Mus musculus with 48 samples.

Results

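Joining of an Igh D segment to a JH segment can proceed by deletion, which leaves the D segment in its chromosomal orientation, or by inversion, which turns it around. Junctions between a JH bait and the D region were sorted here by the strand of the D-side sequence: plus-strand junctions have the orientation that deletion leaves, and minus-strand junctions the opposite one. The minus-strand D junctions are all junctions of the JH-bait lists on mouse chromosome 12 (mm9) on the minus strand between 114668739 and 114766265, from the first base of Ighd4-1 to the last base of the outermost annotated D segment. Over 25 libraries they numbered 8797, against 8013744 plus-strand junctions in the same window, a pooled minus-strand share of 0.110%. The strand alone does not make a junction an inversional D to JH joint, and the whole set is therefore called by its strand. Of the minus-strand junctions, 43.6% lay inside a D segment or up to 10 bp beyond the end that inversion uses. That figure includes junctions near the JH-facing end of a segment.

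The RAG endonuclease cuts beside recombination signals, each a heptamer and a nonamer separated by a spacer, and joins a signal with a 12-base spacer to one with a 23-base spacer. D segments carry a 12-base-spacer signal on both sides, so either side can pair with a JH signal. Use of the JH-proximal side deletes the DNA between D and JH. Use of the JH-distal side inverts the D segment and the DNA between. In normal development D to JH joining is known to be mostly deletional. RAG cleavage leaves coding ends, which are usually joined to each other, and signal ends; a coding end joined to a signal end is called a hybrid joint.

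The junctions were mapped by LAM-HTGTS, which amplifies linearly from a fixed bait primer and sequences the DNA joined to it. Bone marrow cells and transformed lines were used, all labelled RAG1 deficient. Bone marrow (BM) pro-B cells on a C57BL/6 background were purified with anti-B220 beads, grown for 4 to 5 days in medium with IL-7 (10 ng/mL) and SCF (at 2 ng/mL), and had either a normal Igh locus (WT BM, 3 libraries) or one labelled as an Igh inversion (INV BM, 4 libraries). No label gives the ends of the inversion, or a step restoring RAG in the marrow cells. The v-Abl transformed pro-B lines all carried OsTIR1, the plant receptor through which auxin (IAA) triggers the loss of a degron-tagged protein, and an Emu-Bcl2 transgene (an anti-death gene). They received RAG1/2 by retrovirus and were arrested with the Abl kinase inhibitor STI-571 at 3 uM, for 4 days in the untreated groups. There were 3 libraries each of the parental line, of a line with a degron on the cohesin-release factor Wapl, untreated and with IAA and Dox, and of a Wapl-degron line with a single Igh allele, untreated, with IAA and Dox, and with IAA, Dox and the inversion, which for this line stands in the library titles but not in the genotype. Treated cells had STI-571 for 1 day and then also 150 uM IAA and Dox (2 mg/mL as labelled) for 3 days. The labels give no Wapl protein level and do not say that replicates came from separate animals or cultures, so p-values measure the spread between these libraries only.

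Each list held 1 junction per line, 61194 to 1016401 per library. The D window took 77.8% to 97.3% of the junctions in 22 libraries, and 48.9%, 16.1% and 5.77% in WT BM replicates 1, 2 and 3. No read name of a D junction occurred in more than 1 library. In Wapl-degron IAA/Dox replicate 2, 28.4% of the lines repeated a read name. The libraries came from 8 sequencing runs. Although all are labelled as JH1 to JH4, they did not hold the 4 baits alike. Parental replicate 1 had no Ighj1 or Ighj3 junctions in the D window. Wapl-degron untreated replicate 1 had no Ighj2 junctions there, and 59.1% of its D junctions were from Ighj1. Single-Igh untreated replicate 1 had Ighj2 junctions only, and single-Igh INV IAA/Dox replicate 1 had Ighj1 junctions only. Ighj1 made up 82.9% and 81.5% of the D junctions in single-Igh IAA/Dox replicates 1 and 3, against 25.4% in replicate 2.

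The segments Ighd4-1, Ighd1-1 and Ighd2-3 held most of the minus-strand junctions and are shown with 28 bases on each side, 5′ to 3′ on the minus strand (the strand of the gene), with both heptamers in capitals. The left heptamer is the one that inversional joining uses, and the right one faces JH. Ighd4-1 (DQ52) is the segment nearest to JH, at chr12:114668711-114668777 with its flanks. Ighd1-1 (DFL16.1), the distal segment in wide use, lies at chr12:114720353-114720431, and Ighd2-3 at chr12:114713583-114713655.
Ighd4-1: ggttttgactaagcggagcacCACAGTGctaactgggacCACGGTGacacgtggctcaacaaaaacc
Ighd1-1: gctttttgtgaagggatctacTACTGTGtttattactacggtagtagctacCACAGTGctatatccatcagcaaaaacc
Ighd2-3: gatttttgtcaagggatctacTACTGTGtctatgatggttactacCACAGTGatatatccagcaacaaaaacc
A heptamer is read from the segment outward, so the left one is read on the opposite strand. Read in that way, both heptamers of each of these segments begin with CAC, and the JH-distal heptamers of Ighd1-1 and Ighd2-3 end in GTA where the others end in GTG.

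Plus-strand junctions outnumbered minus-strand ones in 25 of 25 libraries, by 379 to 1583 to 1. The minus-strand share of D junctions was 0.137%, 0.126% and 0.223% in WT BM replicates 1 to 3 and 0.0743%, 0.107%, 0.122% and 0.103% in the 4 INV BM libraries. It was 0.0631%, 0.0926% and 0.0732% in the parental line. In the Wapl-degron line it was 0.0851%, 0.0857% and 0.0779% untreated and 0.204%, 0.204% and 0.263% with IAA and Dox. In the single-Igh line it was 0.105%, 0.0863% and 0.0793% untreated and 0.234%, 0.151% and 0.239% with IAA and Dox. With the inversion added it was 0.252%, 0.219% and 0.214%. The treated libraries of both lines lay above all their untreated ones, and the INV BM libraries below the WT BM ones, the latter only with junctions away from D segments counted. Behind these shares stand 104 to 721 minus-strand junctions per library. The 95% Wilson interval of the WT BM replicate 3 share, for example, ran from 0.188% to 0.265%; such intervals cover counting error only, since reads without molecular identifiers are not independent molecules.

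**Figure D1:**
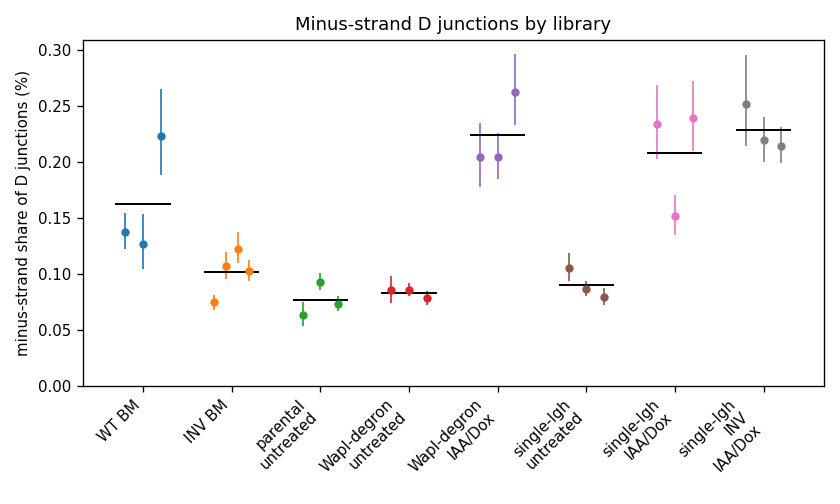
Minus-strand share of D junctions (%) in each library, by group; points are libraries, vertical lines 95% Wilson intervals and horizontal bars group means. The 6 IAA/Dox libraries without the inversion sit between 0.151% and 0.263%, above the 6 untreated libraries of the same 2 lines.

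Counted as distinct junctions (1 strand, position and bait end counted once per library), the minus-strand share was higher. There were 2550 distinct minus-strand and 143827 distinct plus-strand junctions, and the minus-strand share ranged from 0.327% in WT BM replicate 3 to 3.35% in Wapl-degron IAA/Dox replicate 3. A distinct plus-strand junction was listed 16.0 to 116.7 times on average in a library, and a distinct minus-strand one 1.82 to 10.9 times. A junction counts once however often it is listed, so a distinct share depends on depth. Depth differed between the strands and between libraries, and its part in the distinct-junction values here and below was not tested. The 131 minus-strand lines of WT BM replicate 3 came from 12 distinct junctions, and those of WT BM replicate 2 from 14.

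With IAA and Dox the minus-strand share was 2.70 times the untreated mean in the Wapl-degron line (0.224% ± 0.034 against 0.0829% ± 0.0043, SD, n = 3 each) and 2.31 times in the single-Igh line (0.208% ± 0.049 against 0.0902% ± 0.0133, SD, n = 3 each). The groups did not overlap in either line, and the two-sided exact permutation p was 0.1 in both, the smallest that 3 against 3 libraries allow (0.196 after Benjamini-Hochberg adjustment over 12 tests). Among libraries of a single run that held both groups, the difference was 0.121 percentage points for the Wapl-degron cells (1 treated against 3 untreated libraries) and 0.109 for the single-Igh cells (2 treated against 1 untreated). Over distinct junctions it was 0.417 percentage points in the Wapl-degron line (exact permutation p = 0.1) and 0.0983 in the single-Igh line (exact permutation p = 0.9), where the groups then overlapped. With the Ighj2 bait alone the single-Igh difference fell to 0.0574 percentage points, where treated replicates 1 and 3 had 6 and 4 minus-strand junctions. With Ighj1 alone the treated single-Igh shares were 0.246%, 0.136% and 0.257%. They were 0.0832% and 0.0985% in untreated replicates 2 and 3, and untreated replicate 1 had no Ighj1 junctions. The log2 change differed by 0.24 between the 2 lines (exact permutation p = 0.415).

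The INV BM share was 0.626 times that of WT BM (0.102% ± 0.020, n = 4, against 0.162% ± 0.053, n = 3, SD; exact permutation p = 0.0571, the smallest this design allows, adjusted 0.196). That p is the smaller tail doubled; counted from absolute differences, the definition first used and set aside after its values were seen, it was 0.0286 by exact permutation, and 0.171 after adjustment. It turned to 0.289 percentage points higher in INV BM over distinct junctions. Same-numbered libraries were taken as pairs here, although their correlations were weak (0.103 to 0.117). Over the 3 pairs the difference was -0.0611 percentage points (exact permutation within pairs, p = 0.25, the smallest that 3 pairs allow). Within a run it was -0.0642 percentage points for 3 INV BM against 2 WT BM libraries and -0.0629 for 1 against 1. Without WT BM replicate 3 it was -0.0302. Junctions away from the ends of D segments made up 45.7%, 52.9% and 8.40% of the minus-strand junctions in WT BM replicates 1 to 3 and at most 27.3% in the INV BM libraries. Within 40 bp of D segments the difference was -0.0358 percentage points and the groups overlapped (exact permutation p = 0.743), and with overlaps of 6 or more bases left out it was -0.0275 (exact permutation p = 0.629). As a share of all junctions in the library, minus-strand D junctions were instead 2.58 times higher in INV BM (0.0863% ± 0.0207 against 0.0335% ± 0.0293, SD, exact permutation p = 0.114). That ratio depends on WT BM replicate 1, whose high value lowers it, since the WT BM values were 0.0670%, 0.0204% and 0.0129%. With 1 library left out the difference ran from 0.0426 to 0.0697 percentage points. A larger part of INV BM junctions also fell in the D window at all. The single-Igh line showed 0.228% ± 0.020 with the inversion and 0.208% ± 0.049 without (exact permutation p = 0.8), and the groups overlapped. WT BM was 2.13 times above the parental line (exact permutation p = 0.1), but 1.38 percentage points below it over distinct junctions. Junctions away from the ends of D segments made up 2.24%, 21.8% and 26.8% of the minus-strand junctions in the parental line. At Ighd4-1 and at Ighd1-1 the shares of WT BM and the parental line overlapped (exact permutation p = 0.9 and 0.6). The Wapl-degron and parental lines, both untreated, overlapped (exact permutation p = 0.6). The last 2 comparisons share no sequencing run, so run and group cannot be told apart.

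In the 18 libraries without the inversion the VH window, from the first to the last annotated VH gene, gave a minus-strand share of 1.28% ± 0.55, against 0.141% ± 0.068 in the D window. VH genes have a signal on 1 side only, and most of them join by deletion. In WT BM replicates 1 to 3 the VH share was 0.448%, 0.597% and 0.575%, from 182742, 83648 and 61394 VH junctions. In the lines without the inversion it was 0.144% to 2.21%, from 1900 to 9172 VH junctions per library. The VH window (114812453 to 117238672) is much longer than the D window, and the part of its length and low use was not tested. The D share was lower in 18 of 18 libraries (permutation test by sign flips, p = 1e-05, the smallest the resamples give; adjusted 7e-05 over 7 such tests). Over distinct junctions the difference was -0.147 percentage points and did not pass (permutation p = 0.516).

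Minus-strand junctions were unevenly spread over the 21 D segments. Within 40 bp of a segment, Ighd1-1 had 3152, Ighd4-1 2558, Ighd2-3 549, Ighd2-4 454, Ighd2-8 166, Ighd3-2 117 and Ighd2-7 113. Ighd2-6, Ighd6-1, Ighd2-5, Ighd6-2 and Ighd5-7 had 19, 12, 10, 4 and 1. The other 9 segments had none; the largest of these, Ighd5-6, had 2410 plus-strand junctions, so that a count of 0 allows a share of up to 0.124%. Ighd4-1 took 29.1% of the minus-strand junctions and 15.7% of the plus-strand ones, whereas Ighd1-1 took 35.8% and 59.7%. Pooled over all libraries, the minus-strand share was 0.203% at Ighd4-1, 0.0206% at Ighd2-6 and 0.0102% at Ighd2-5, but the order of the segments differed between groups. In INV BM the mean share was 0.0850% at Ighd4-1 (0.0579% to 0.124%) and 0.126% at Ighd3-2 (0.0720% to 0.198%). In the single-Igh INV IAA/Dox group it was 0.290% at Ighd4-1 (0.214% to 0.338%) and 0.682% at Ighd2-7 (0 to 1.18%). The ranges of the 2 segments overlapped in both groups. The Ighd2 segments are close copies: over 15 pairs the 100 bases on the JH side were 66.0% to 100% identical (median 99.0%), so reads that end in these flanks may be placed at another member.

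The minus-strand share was higher at Ighd4-1 than over all other D segments together in 20 of 25 libraries (0.207% ± 0.166 against 0.107% ± 0.067, SD; permutation test by sign flips, p = 0.00036, adjusted 0.00126). The window starts at the first base of Ighd4-1, so its JH-facing side is not counted while that of the others is; over coding-side junctions alone the difference was 0.187 percentage points. At Ighd1-1 the share was 0.119% ± 0.089, against 0.139% ± 0.056 over the other segments (permutation p = 0.152, adjusted 0.266). Without the single-Igh IAA/Dox libraries the difference was -0.0338 percentage points (permutation p = 0.0142). Over distinct junctions this turned to 1.30 percentage points higher at Ighd1-1. Over coding-side junctions alone the share was lower at Ighd1-1, and that difference passed unadjusted.

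Under IAA and Dox the shares at Ighd1-1 and at Ighd4-1 are given side by side; the difference between the segments was not tested. At Ighd1-1 the minus-strand share was 0.0599%, 0.0499% and 0.0470% in the untreated Wapl-degron libraries and 0.174%, 0.172% and 0.207% with IAA and Dox. In the single-Igh line it was 0.0556%, 0.0593% and 0.0503% untreated and 0.329%, 0.163% and 0.275% treated. The groups did not overlap, with ratios of 3.53 and 4.65 (exact permutation p = 0.1 each, adjusted 0.6 over 12 tests chosen after the data were seen). Over distinct junctions both differences turned negative, at -0.554 and -0.0504 percentage points.
At Ighd4-1 the share was 0.202%, 0.228% and 0.159% untreated and 0.199%, 0.226% and 0.283% treated in the Wapl-degron line. In the single-Igh line it was 0.264%, 0.227% and 0.208% untreated and 0.175%, 0.147% and 0.247% treated. These groups overlapped (exact permutation p = 0.5 and 0.3). Alongside, the plus-strand use of the 2 segments shifted: in the Wapl-degron line Ighd4-1 took 9.36% to 13.0% of plus-strand D junctions untreated and 59.2% to 62.6% treated, while Ighd1-1 went from between 76.0% and 78.8% to between 23.2% and 25.5%. The part of this shift in the change of the whole minus-strand share was not tested. With Ighd4-1 left out, the treated minus untreated difference in that share was 0.138 percentage points for Wapl-degron and 0.151 for single-Igh cells.

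**Figure D2:**
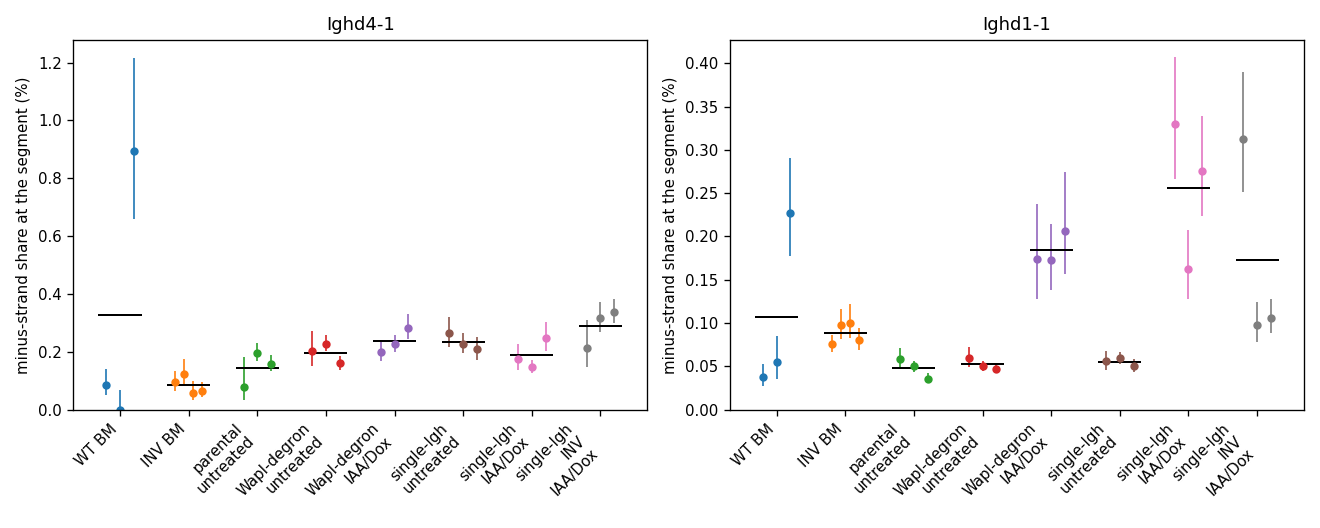
Minus-strand share (%) among junctions within 40 bp of Ighd4-1 (left) and Ighd1-1 (right), by library and group; points are libraries, vertical lines 95% Wilson intervals and horizontal bars group means, and the 2 vertical axes have different ranges. At Ighd1-1 the treated Wapl-degron and single-Igh libraries lie above the untreated ones, and at Ighd4-1 they overlap; WT BM replicate 3 stands at 0.895% at Ighd4-1.

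In marrow the Ighd4-1 share was 0.0832%, 0 and 0.895% in the 3 WT BM libraries and 0.0579% to 0.124% in INV BM. The 0 in WT BM replicate 2 allows up to 0.0516%, and the high value in replicate 3 rests on 40 lines.

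A minus-strand junction can lie at either end of a D segment. Those inside the segment, or up to 10 bp beyond its JH-distal end, were called coding side, where a JH coding end meets a D coding end by inversion. Those in the 40 bp on the JH-proximal side were called signal side, where a JH coding end meets the D signal, the geometry of a hybrid joint. Of the 8797 junctions, 43.6% were on the coding side, 37.7% on the signal side and 18.7% elsewhere. Of the plus-strand junctions 98.0% were on the coding side.

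At Ighd4-1, 86.4% of the coding-side junctions fell within 5 bp of the JH-distal end, and the most frequent position was 114668747, 2 bases short of that end, with 719 junctions in 20 libraries. Only 38.1% of the coding-side junctions of Ighd1-1 fell within 5 bp of its JH-distal end. For Ighd2-3, Ighd2-4 and Ighd2-8 the figures were 52.1%, 44.4% and 47.9%. Unlike that of Ighd4-1, the signal side of Ighd1-1 lies inside the window. At Ighd1-1, 2386 minus-strand junctions were on the signal side against 763 on the coding side. The signal side held the larger part in 23 of 25 libraries; it made up 15.0% in WT BM replicate 2, of 20 junctions, and 47.9% in Wapl-degron IAA/Dox replicate 3, of 48. The single position 114720380, the first base of the JH-facing heptamer printed above, held 1509 junctions in 23 libraries, 17.2% of all minus-strand D junctions. The matching border position of Ighd2-3, 114713610, held 301 junctions in 20 libraries, or 78.4% of that segment's signal-side junctions. Ighd2-7, Ighd2-4, Ighd2-8, Ighd2-6 and Ighd3-2 had 94.7%, 60.4%, 56.6%, 42.1% and 31.6% of their minus-strand junctions on the signal side. At Ighd1-1, 261 of the 763 coding-side junctions lay on the first base of the segment, next to that border, and where the nearer end decided the side, the mean coding-side percentage was 57.2 in the treated Wapl-degron libraries, in place of 75.9, and 31.9 in the untreated ones; it was 11.7 in WT BM, in place of 24.3, and 13.2 in INV BM, in place of 31.1.
Just outside the window, the 40 bp on the JH side of Ighd4-1 held 1429 more minus-strand junctions in 25 libraries, 447 of them on the border base 114668738. They are not among the 8797. In every marrow library they outnumbered the minus-strand junctions at Ighd4-1 inside the window. The counts were 35, 30 and 197 against 14, 0 and 40 in WT BM replicates 1 to 3. In INV BM they were 101, 65, 68 and 148 against 30, 32, 13 and 27. The same held in parental replicate 1 (16 against 5) and single-Igh INV IAA/Dox replicate 1 (33 against 27). In the other libraries of the lines the junctions inside the window were more. Inside the JH-side edge the first 10 bp held 2239 minus-strand junctions and the 10 bp outside it 1244; the 1000 bp on either side of the VH-side edge held 0.

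**Figure D3:**
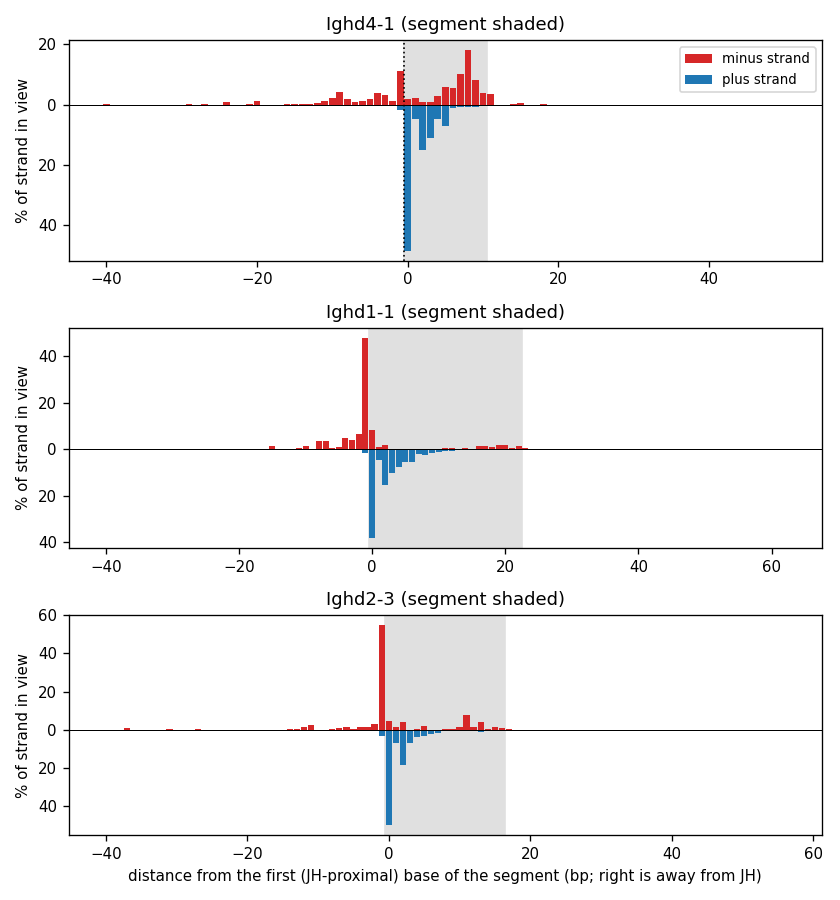
Junction positions around Ighd4-1, Ighd1-1 and Ighd2-3 over all libraries, as % of each strand's junctions in view; minus strand upward, plus strand downward, segment shaded, distance in bp from its JH-proximal first base. The minus-strand peak sits on the signal border of Ighd1-1 and Ighd2-3 and near the JH-distal end of Ighd4-1; the dotted line marks the start of the window.

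The coding side made up 44.0%, 47.2% and 43.8% of the minus-strand junctions in the untreated Wapl-degron libraries and 71.8%, 77.4% and 78.5% with IAA and Dox. The groups did not overlap. In the single-Igh line it was 51.5%, 36.6% and 41.8% untreated and 44.1%, 62.9% and 52.2% treated, which overlapped. WT BM had 21.6%, 16.3% and 35.1%, INV BM 24.4% to 36.1% and the parental line 14.9%, 41.6% and 43.8%. Coding-side percentages were not tested between groups. The log2 change with IAA and Dox differed by 0.46 between the 2 lines (exact permutation p = 0.145, adjusted 0.363 over 5 such tests). Ighd4-1, whose signal side lies outside the window, took 60.9% to 65.6% of the minus-strand junctions in the treated Wapl-degron libraries and 22.3% to 34.7% in the untreated ones. At Ighd1-1 alone the signal side made up a median of 57.5% treated and 69.5% untreated in that line.

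**Figure D4:**
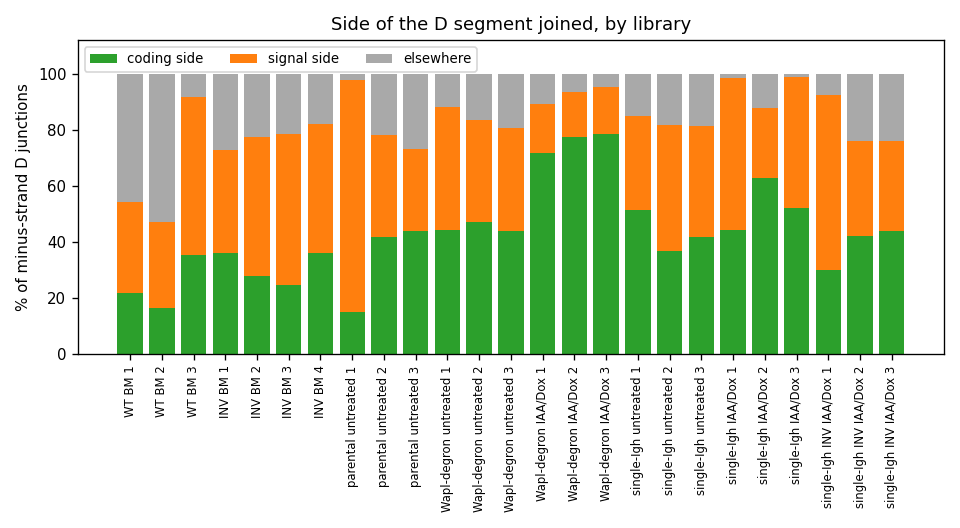
Side of the D segment joined, as % of the minus-strand D junctions of each library (coding side, signal side, elsewhere, stacked to 100%). The coding side takes 71.8% to 78.5% in the treated Wapl-degron libraries and 43.8% to 47.2% in the untreated ones.

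The 1646 junctions elsewhere lay away from D segment ends. In 889 of them (54.0%) the bait and the prey shared 6 or more bases on the read, against 23 of the 3836 coding-side minus-strand junctions and 0.717% of the coding-side plus-strand ones. Of these 889, 881 had a bait that ended at least 10 bases inside the JH segment rather than at its coding end. The site with most junctions, between 114720487 and 114720494, 88 bp beyond the JH-distal end of Ighd1-1 at its most frequent position, held 386 junctions in 19 libraries, 373 of them with the Ighj2 bait ending at 114667711. The bait (chr12:114667682-114667711, plus strand) and the prey (chr12:114720462-114720491, minus strand) of that site are shown because their overlap, in capitals, is 16 bases long, 14 of them identical.
Bait: aggagactgtgagaGTGGTGCCTTGGCCCC
Prey: GTGCTGCCTGGGCCCCcaatgctctctaca
The next site, 114713705 near Ighd2-3, held 171 junctions in 15 libraries, 167 with the Ighj2 bait ending at 114667712 and an overlap of 8 bases. The third, between 114721029 and 114721041 near Ighd1-1, held 140 junctions in 15 libraries and none with an overlap of 6 bases. Like 114713705, the sites 114689156 near Ighd2-8 (113 junctions) and 114708999 near Ighd2-4 (106) lay 78 bp beyond their segment. They mostly had the same Ighj2 bait end and an overlap of 8 bases. The 100 bases on the VH side of Ighd2-3 were 95% identical to those of Ighd2-4 and 97% to those of Ighd2-8. Reads at these sites may therefore be placed at another member.
The letters CAC, with which a heptamer begins, stood where a signal would begin, just past the prey end or at the prey start, at 0 of the 889 long-overlap junctions and at 24.3% of the other 757, against 3.41% of all positions in the window. This is a match of letters only. Over the 292 distinct junctions among those 757 it was 20.5%. Most of the 889 lines lay at a few sites, which held 386, 171, 113 and 106 of them. The other 757 also gathered at sites, the largest with 140, 119 and 85 lines. Lines at 1 site share their letters, and distinct junctions with different bait ends can share a position. None of these figures (0 of 889, 24.3% and 20.5%) can therefore be weighed against a share of positions.

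**Figure D5:**
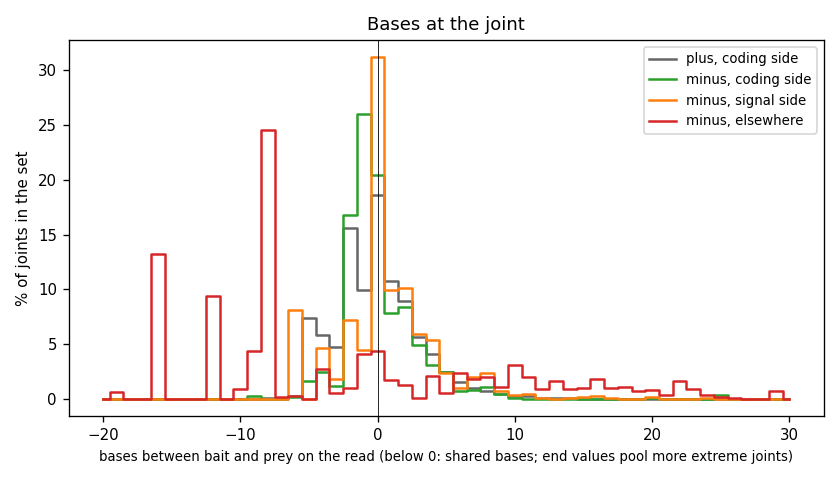
Bases between bait and prey on the read for plus-strand coding-side, minus-strand coding-side, minus-strand signal-side and minus-strand elsewhere joints, as % of each set pooled over all libraries, of which marrow makes up a different part in each set; values below 0 are shared bases and values above 0 inserted bases. The elsewhere set has its weight at long overlaps, with a median of -8 bases, against a median of 0 in the other 3.

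At the joint, direct joints made up 20.1% ± 11.4 of the minus-strand and 17.6% ± 6.8 of the plus-strand D junctions (SD, n = 25; permutation test by sign flips, p = 0.0702, adjusted 0.164). Joints with shared bases (microhomology) made up 41.8% ± 16.7 and 41.8% ± 22.5 (permutation p = 0.995), and joints with inserted bases 38.1% ± 25.7 and 40.6% ± 28.7 (permutation p = 0.292). None passed over all lines, though the difference in direct joints was 3.79 percentage points without WT BM (permutation p = 0.00579) and 3.13 without Wapl-degron IAA/Dox (permutation p = 0.0409). Over distinct junctions microhomology was 20.3 percentage points more frequent and inserted bases 21.5 percentage points less frequent on the minus strand (permutation p = 1e-05 each). The strands differ much in depth there. Counted by line, microhomology was instead less frequent on the minus strand without long overlaps and without WT BM, and both passed unadjusted. Inserted bases were more frequent on it without long overlaps. Joints with inserted bases made up 49.0% to 90.1% of the minus-strand D junctions in the marrow libraries and 7.48% to 34.3% in the lines. The plus-strand D junctions split in the same direction, with 84.5% to 85.9% in marrow and 10.8% to 34.0% in the lines. The Ighj1 bait, the JH segment nearest to D, made up 33.8% ± 26.9 of minus-strand and 32.2% ± 23.9 of plus-strand D junctions (permutation p = 0.414, adjusted 0.483). It was 0% on both strands in parental replicate 1 and single-Igh untreated replicate 1, and 100% on both in single-Igh INV IAA/Dox replicate 1. Those libraries could not differ between strands but were kept in the test.

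Positions on 1 strand with gaps of up to 5 bp were joined into clusters, and those with at least 10 junctions in the 2 groups were tested with limma voom relative to the D junctions of each library. The minus strand had 95 clusters, of which 12 to 24 passed that minimum. With IAA and Dox in the Wapl-degron line, 5 of 12 minus-strand clusters were called, all higher, where 44.9% of the clusters of both strands were called. The cluster over Ighd4-1 made up 0.143% of D junctions treated (0.124% to 0.172%) and 0.0230% untreated (0.0190% to 0.0297%), a log2 change of 2.58 ± 0.23 (SE, limma adjusted p = 0.000112). The cluster around the signal border of Ighd2-8 (114689052 to 114689064) rose by 2.43 ± 0.53 and the site at 114668886, 137 bp beyond Ighd4-1 and mostly a 9-base overlap with Ighj1, by 2.39 ± 0.63 on the log2 scale (limma adjusted p = 0.00788 and 0.0184), from 15 and 22 junctions. In the single-Igh line 1 of 12 was called, against 31% of both strands: the Ighd4-1 cluster, at 0.0843% treated and 0.0280% untreated (log2 change 1.67 ± 0.30, SE, limma adjusted p = 0.00186). These are shares of all D junctions; the minus-strand share at Ighd4-1 itself overlapped between the same groups in both lines.
With the inversion in the single-Igh line 5 of 13 minus-strand clusters were called, all higher, against 25.4% of both strands. All 5 lay elsewhere, 4 of them at sites used mainly by Ighj2, and overlapped between groups; the other, 114705292, came from the Ighj1 bait in 2 libraries. Ighj2 made up 0%, 50.4% and 55.2% of the D junctions of these libraries and 3.37%, 59.1% and 4.38% without the inversion, and its part was not tested. In INV BM against WT BM 1 of 24 was called, against 5.7% of both strands: 114708999, with a log2 change of -4.75 ± 1.30 (SE, limma adjusted p = 0.0417), with overlapping libraries. With the replicate number as a block, 0 were called. WT BM against the parental line gave 1 of 17, against 34% of both strands: a cluster over both the signal border and the coding segment of Ighd2-4 (114708891 to 114708921), at 0.0210% in WT BM (0.0136% to 0.0250%) and 0.00102% in the parental line (0 to 0.00209%), with a log2 change of 4.79 ± 1.13 (SE, limma adjusted p = 0.00928). It was not called relative to all junctions. These too are shares of all D junctions, and over clusters of both strands the median log2 change was 2.88. The minus-strand share at Ighd2-4 itself overlapped, at 0.114% to 0.206% in WT BM and 0 to 0.127% in the parental line. The untreated Wapl-degron and parental lines gave 0 of 17 with limma, 0 of them at an unadjusted p under 0.05, against 0% of both strands.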

How the data were processed

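LAM-HTGTS junction lists with JH baits were analysed for 25 libraries in 8 groups. Each deposited line holds 1 junction with its position, strand, bait coordinates and read coordinates, per the file headers. The submitters' processing notes name Bowtie2 and mm9; other steps and versions are not given in the sources used here. D, JH and VH genes came from GENCODE vM1 on NCBIM37, the assembly of mm9, and 20 of 21 D segments were given RefSeq symbols through synonyms; the last kept its file name. JH coding ends were placed by the best 23-base-spacer signal whose heptamer ends in GTG.

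The members and lists were chosen with earlier results of these data known. Shares were compared by two-sided exact permutation over libraries (p as the smaller tail doubled, a definition settled after values were seen), paired quantities by 100000 sign flips, and clusters by limma 3.58.1 (voom, R 4.3.3) with Benjamini-Hochberg adjustment at 0.05. The limma step was tested on simulated data with 8-fold changes: it recovered 61.5% of 13 changed clusters among 69 for the Wapl-degron treatment and 92.9% of 14 among 71 for the single-Igh treatment, all in the right direction, and 100% of those with 100 or more junctions. It made 0 false calls for the first and 1 for the second (7.14% of its calls). The simulated counts were negative binomial with a fixed spread that was not matched to the real libraries. These rates therefore do not give the recovery or the false calls in the real data. D segments and sites named are Ighd4-1, Ighd1-1, the 3 segments and the 3 sites outside segments with most minus-strand junctions, and up to 3 called clusters per comparison whose libraries do not overlap; others were named after their values were seen. Same-numbered BM libraries had correlations of 0.103 to 0.117 over 25 counts by segment and strand with 100 or more junctions. Each exceeded 0.1, and the number was taken as a pairing there on that limit alone. Correlations this weak do not show that the pairs deviated together, and single Wapl-degron pairs reached 0.375 and 0.457. The pairing comes from the data, since the labels give only the number. In no other comparison did every pair exceed 0.1. Alternatives were distinct junctions, read names counted once, single baits or sides, other cluster limits, blocks by replicate or run, and each library left out. Pooled lists, splenic and Igk libraries were not used. Off-target lists were used only for overlap and for 1 count from WT BM replicate 4.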

Additional observations from a re-analysis of the deposited data

Results flagged for a closer look

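Data outside the comparisons also held minus-strand D junctions. The off-target list of WT BM replicate 4, a library whose full list was not analysed here, had 25 minus-strand junctions in the D window. The 40 bp on the JH side of Ighd4-1, which the window leaves out, held 1429 minus-strand junctions, between 16 and 197 per library, the most in WT BM replicate 3. None of the 5 IAA/Dox changes tested differed between the 2 lines at an exact permutation p under 0.05.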

How the results depend on the processing

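Of 102 alternatives for the 6 comparisons of the minus-strand share, 94 kept the direction, and of 90 for the share of all junctions, 84; no p as used here could pass 0.05, and with p from absolute differences only INV BM against WT BM did, unadjusted (0.0286 by exact permutation). Over distinct junctions the minus-strand share turned for INV BM against WT BM (0.289 percentage points), the single-Igh inversion (-0.0463) and WT BM against the parental line (-1.38), and the share of all junctions turned for IAA/Dox in the Wapl-degron (-0.147) and single-Igh (-0.611) lines. The single-Igh inversion difference also turned near D segments only (-0.0121, and -0.000593 of all junctions), with Ighd4-1 left out (-0.0118), without long overlaps (-0.00594) and on the coding side (-0.0205, and -0.0134 of all junctions). INV BM against WT BM turned in 1 run for the share of all junctions (-0.00922). With 1 library left out the single-Igh inversion difference ran from -0.00782 to 0.0359 and the untreated Wapl-degron against parental share of all junctions from -0.000296 to 0.0135. At Ighd4-1, INV BM against WT BM turned over distinct junctions (0.197) and in 1 run (0.0104), with -0.404 to 0.0435 without 1 library; WT BM against parental turned over distinct junctions (-2.99) and on the log2 ratio (-0.67), with -0.103 to 0.345. At Ighd1-1, INV BM against WT BM turned over distinct junctions (0.667), on the log2 ratio (0.16) and in 1 run (0.0377), with -0.0524 to 0.0421; IAA/Dox turned over distinct junctions in the Wapl-degron (-0.554) and single-Igh (-0.0504) lines; WT BM against parental turned over distinct junctions (-2.11), with -0.00173 to 0.0928; untreated Wapl-degron against parental ran from -0.00210 to 0.00950. With the replicate block the share differences equal the unblocked ones by arithmetic where both groups have 3 libraries (0.141 in the Wapl-degron and 0.118 in the single-Igh line), so those values, which are in the counts above, say nothing about stability. D against VH was -0.147 over distinct junctions. Ighd1-1 against other segments, which did not pass over all libraries, passed unadjusted at 1.30 over distinct junctions and -0.0766 on the coding side (permutation p = 1e-05 each) and at -0.0338 without the single-Igh IAA/Dox libraries (0.0142). Direct joints, which did not pass over all libraries, passed unadjusted at 5.47 without Ighd4-1 (permutation p = 0.0075), 5.12 without long overlaps (0.00466), 3.79 without WT BM (0.00579) and 3.13 without Wapl-degron IAA/Dox (0.0409), and turned to -1.46 on the coding side. Microhomology passed unadjusted at 20.3 over distinct junctions (permutation p = 1e-05), -7.47 without long overlaps (0.00144) and -3.78 without WT BM (0.0243), and was -4.42 without Ighd4-1, -0.578 without INV BM and -0.485 without Wapl-degron IAA/Dox. Inserted bases passed at -21.5 over distinct junctions (permutation p = 1e-05) and were 2.34 without long overlaps. The Ighj1 share passed unadjusted at 6.64 over distinct junctions (permutation p = 0.00275) and 2.73 without WT BM (0.0283), and was -3.80 on the coding side. Coding-side percentages by the nearer end were 11.7 (WT BM), 13.2 (INV BM), 31.9 and 57.2 (Wapl-degron untreated and treated), 31.7, 40.9 and 24.0 (single-Igh untreated, treated, inverted); over distinct junctions INV BM had 39.1 and Wapl-degron untreated 48.7. Called minus-strand clusters numbered, for INV BM against WT BM, 4 relative to all junctions, 13 with a minimum of 1 junction, 0 with 100, 2 with 20-bp gaps, 0 over distinct junctions, 0 with the replicate block and 2 with the run block (0 to 2 without 1 library). For Wapl-degron IAA/Dox they were 9 with a minimum of 1 and 1 with 100 (2 to 5 without 1 library). For single-Igh IAA/Dox they were 10 with 1, 3 with 100, 2 with 20-bp gaps and 4 with the replicate block (1 to 4). For the single-Igh inversion they were 0 with 100, 0 over distinct junctions and 3 with the replicate block (0 to 7). For WT BM against parental they were 0 relative to all junctions, 10 with 1, 0 with 100, 2 with 20-bp gaps, 6 over distinct junctions and 2 with the replicate block (0 to 3). The causes of these changes were not tested. The few distinct minus-strand junctions, 12 to 238 per library, limit the precision of every share. Distinct values also depend on depth, which differed between strands and libraries. The overlap filter, single baits, coding side, nearer end and segment-wise tests were added after seeing the data.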

Other observations

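Of the 4382 minus-strand D junctions in the 13 libraries that have both a full and an off-target list, 746 (17.0%) had their read name in the off-target list, and all 746 were among the 848 lying elsewhere, of which they made up 88.0%. Both lists hold reads of the same library, so this overlap is not an independent check on that class. By group, without a test, 139 of 189 junctions elsewhere in WT BM (73.5%) shared 6 or more bases with the bait, against 53 of 340 (15.6%) in INV BM. The groups of the lines ran from 49.4% to 87.9%. Among them the single-Igh IAA/Dox groups had 78.0% with the inversion and 64.1% without. Among signal-side joints, 274 of 3315 (8.27%) shared 6 or more bases, and in 409 the bait ran 4 or more bases past the JH coding end, into the JH signal.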
